A study of Mus musculus with 48 samples.

Results

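The colon epithelium of 6 week old Il10-/- mice was compared with that of C57BL/6J mice of the same age, at a time when histology had shown no colitis in either strain. The samples were chosen by strain, tissue and age as labelled, which gave 12 of the 48 samples of the series, 6 for each strain and 1 array for each mouse. The difference between the strains was small in number of genes: 17 of 27670 genes (0.0614%) were called, 9 higher (0.0325%) and 8 lower (0.0289%) in Il10-/- mice. Genes counted as called if any of their probes passed a fold change of 1.5 with a Benjamini-Hochberg adjusted p under 0.05 in a limma fit over all 41174 probes, and 1978 probes had an unadjusted p under 0.05. The genes that rose were led in size by Pla2g5, Tifa and Socs3, which act in inflammatory signalling, and included Top2a, Cenpe and Iqgap3, which are known from proliferating cells. Those that fell included Rab7b, Stk25 and Mgat5, all on chromosome 1, and Cyp4f14, a metabolic enzyme.

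Interleukin 10 is an anti-inflammatory cytokine made mainly by T cells and myeloid cells. It binds a receptor that signals through JAK kinases and the transcription factor STAT3, and it restrains the response of the gut wall to its bacteria. Mice that lack it develop colitis when they carry intestinal bacteria. The colon epithelium is a single layer of absorptive colonocytes, goblet and enteroendocrine cells, renewed from dividing cells at the base of the crypts, and lies between these bacteria and the immune cells of the lamina propria.

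The Il10-/- mice were males of strain B6.129P2-Il10tm1Cgn/J and the controls were male C57BL/6J mice, named C57BL/6JArc in the study's methods, from a different colony. As the strain name gives, the knockout allele was made in cells of another strain and then crossed onto C57BL/6J, and the number of crosses is not given in the sources used here. All mice of both strains had received an oral inoculum of Enterococcus strains mixed with a complex gut microbiota and a purified AIN-76A diet. The 6 week old mice were killed a few days after this inoculum. Epithelial cells of the proximal colon were cut from frozen sections by laser microdissection, leaving out the lamina propria as far as could be done, although it was taken along in a section of an Il10-/- mouse of 6 weeks. Their RNA was amplified, labelled with Cy3 and hybridised against a Cy5-labelled pool of RNA from healthy Swiss mouse tissues, the same for every array. The mice of each group had been picked to span the range of histology scores. Values are the log2 ratio of a sample over this pool, so that a higher value means more of the transcript in the sample. Such ratios compare samples for the same probe and do not rank genes by level.

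Of the probes on an array, 25.8 to 34.5% (median 29.2%) were well above background in Il10-/- mice, and 12.2 to 36.1% (median 30.9%) in C57BL/6J mice. The lowest value, 12.2%, was that of C57BL/6J replicate 1. The median correlation of this array with the other epithelial arrays was 0.48, against 0.79 to 0.90 for the other 11 arrays. Results that rest on it are therefore given with and without it. Without it 21 genes (0.0759%) were called, 14 higher (0.0506%) and 7 lower (0.0253%), of which 13 were among the 17 called with all 12 arrays. The count also depended on other single arrays. It was 61 without C57BL/6J replicate 5 and 39 without Il10-/- replicate 1. It was 6 to 9 without any 1 of Il10-/- replicates 2, 3, 5 and 6 or C57BL/6J replicates 2, 3, 4 and 6. Stk25, Rab7b, Wdfy1, Mgat5, Ttc3 and Tifa kept their call whichever of the 12 arrays was left out.

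**Figure D1:**
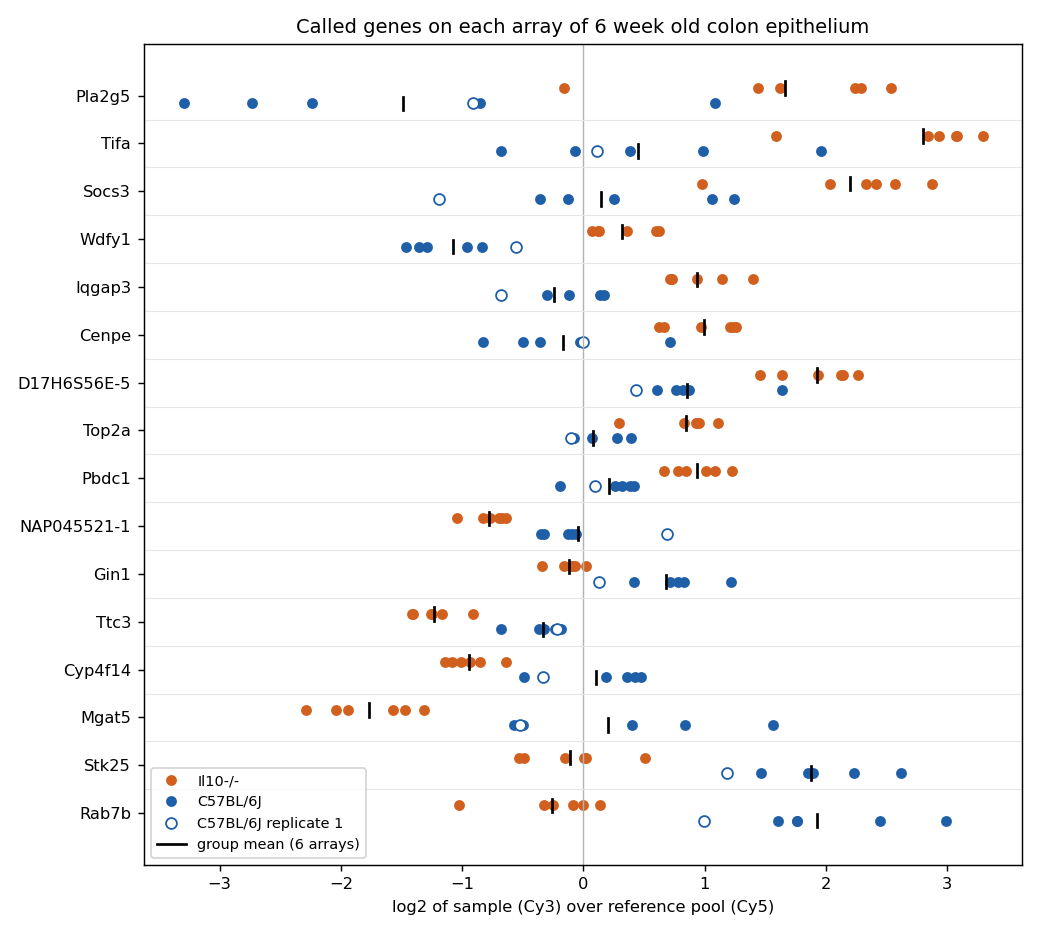
Log2 ratio of sample over reference pool (horizontal axis) of 16 of the 17 called genes on each of the 12 arrays, with Il10-/- mice and C57BL/6J mice as coloured points, C57BL/6J replicate 1 as an open circle and the mean of each group of 6 as a bar. The groups do not overlap for 10 of the 16 genes plotted, and for most of the 9 genes that were higher the C57BL/6J array nearest the Il10-/- mice was replicate 5.

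Cell type markers showed what the samples held. All 10 epithelial markers and all 9 markers of absorptive colonocytes were well above background on at least 6 of the 12 arrays. Their mean log2 ratio was -0.76 to 0.65 in Il10-/- mice and -0.28 to 0.67 in C57BL/6J mice for the epithelial markers. For absorptive colonocytes it was 1.04 to 1.63 and 1.36 to 1.95, so that the ranges overlapped. Immune cell markers differed in signal by cell type. On at least 6 arrays 4 of 4 plasma cell markers and 3 of 5 B cell markers were well above background. On as many arrays 0 of 5 mast cell markers, 2 of 8 neutrophil markers and 2 of 10 T cell markers were well above background, and the neutrophil genes S100a8, Csf3r, Camp, Ngp and Retnlg were not well above background on any. The same held for the B cell genes Cd79a and Ms4a1 and the T cell genes Cd3g and Gzma. Of 10 macrophage markers 5 were detected on at least 6 arrays, while Cd68, C1qa, Itgam and Mrc1 were never detected.

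Cell types of the lamina propria did not move alike, and none of their markers was called. The summed Cy3 intensity of the macrophage markers was 0.0492 to 0.097% of that of all probes in Il10-/- mice and 0.0318 to 0.0522% in C57BL/6J mice. The median log2 fold change was 0.22 over the 10 macrophage markers, 0.23 over 7 fibroblast markers and 0.25 over 8 smooth muscle markers, the last rising to 0.69 without C57BL/6J replicate 1. It was -0.22 over 4 plasma cell markers (-0.21 without that replicate), -0.23 over 5 B cell markers (-0.01 without it) and 0.00 over 7 endothelial markers (0.13 without it, with a change of sign in 11 of 24 alternative settings). The part of lamina propria cells in the differences described here was not tested, and in such samples fewer cells of a type and less RNA per cell cannot be told apart.

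**Figure D2:**
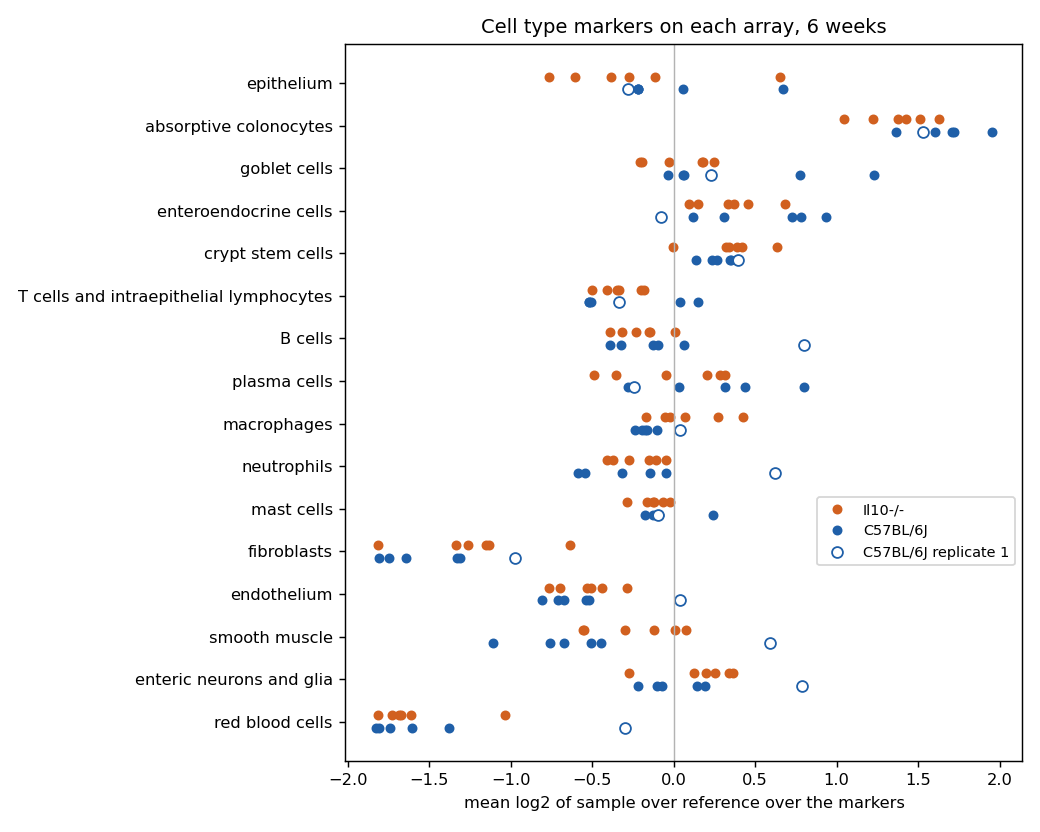
Mean log2 ratio of sample over reference over each list of cell type markers (horizontal axis), 1 point for each of the 12 arrays, coloured by strain, with C57BL/6J replicate 1 as an open circle. The strains overlap for every list, and replicate 1 lies above all other arrays for smooth muscle (0.59), endothelium (0.04), red blood cells (-0.30), B cells (0.80), neutrophils (0.62) and enteric neurons and glia (0.79).

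The Il10 transcript did not serve to check the genotypes. Its probe, at chr1:130928485-130928544 in the mm7 build that the files of intact colon give for this array, was well above background on 1 of 6 arrays of Il10-/- mice and 0 of 6 of C57BL/6J mice, so no fold change is given. Whether the probe lies in the part of the gene that the allele changes is not given in the sources used here. In intact colon at 6 weeks the same probe was higher in the mice labelled Il10-/-, by 1.01 on the log2 scale (adjusted p = 2.4e-06), as at 12 weeks, by 1.49 (adjusted p = 8.66e-10), and groups are therefore named as labelled.

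The 5 called genes of chromosome 1 separated the labelled strains without overlap on all 12 arrays. They were Stk25, Rab7b, Mgat5 and Gin1, which were lower in Il10-/- mice, and Wdfy1, which was higher. Over all probes, the 6 and 6 arrays did not overlap for 58 of 41174 (0.141%). Because the results turn on single probes, and because other probes of the same genes did not move alike, the first 30 of the 60 bases are printed here for 9 of their 11 probes, as the files of intact colon give them, with the mm7 position and the strand. A further probe of Stk25 and a further probe of Mgat5 were not well above background on any of the 12 arrays and are not shown.
Stk25, called, chr1:93529844-93529903, minus strand: tcatcatttgccttgtggtgtcagttcagg
Rab7b, called, chr1:131608159-131608218, plus strand: tgtcaagaaaatggctgaagcttgtttcca
Mgat5, called, chr1:127277768-127277827, plus strand: ccagagaatgacttacagtagctatagtgt
Mgat5, not called, chr1:127367074-127367133, plus strand: gcttagagcttagcccatgtattaaagaga
Gin1, called, chr1:97629757-97629816, plus strand: tctgataaatacagagctcagtgttgctta
Gin1, not called, chr1:97644716-97644775, plus strand: gacttttagcctactggattcttcaaatca
Wdfy1, called, chr1:79926145-79926204, minus strand: tccatgaatggagacccttcatgtagctca
Wdfy1, called only without C57BL/6J replicate 1, chr1:79924980-79925039, minus strand: cctacagcatccgtgtgactcttgctaatg
Wdfy1, not called, chr1:79939763-79939822, minus strand: ctgctttgaagacagaatgactcctgtgga

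Stk25, a kinase of the Ste20 family that acts at the Golgi and in cell polarity, had a log2 ratio of -0.53 to 0.51 (median -0.07) in Il10-/- mice and of 1.19 to 2.62 (median 1.87) in C57BL/6J mice. Every Il10-/- mouse was below every C57BL/6J mouse. The log2 fold change was -1.98 (SE 0.21, adjusted p = 0.000168), a 3.94-fold lower signal, and the probe was well above background on all 12 arrays. It was the only called gene that kept its call under all 24 alternative settings tried.

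Rab7b, a small GTPase of late endosomes that regulates the trafficking of Toll-like receptors, had a ratio of -1.02 to 0.14 (median -0.17) in Il10-/- mice. In C57BL/6J mice it was 0.99 to 2.99 (median 1.76). The 2 ranges were apart, with C57BL/6J replicate 1 the nearest array of its group. Its log2 fold change was -2.18 (SE 0.26, adjusted p = 0.000884), and -2.37 without that replicate. Only 2 of 6 Il10-/- arrays, against 6 of 6, were well above background for it, and with Feature Extraction's processed signals the difference was -3.87.

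Mgat5, the Golgi enzyme that adds the beta-1,6 branch to N-glycans, was at -2.29 to -1.31 (median -1.76) in Il10-/- mice and at -0.57 to 1.56 (median -0.05) in C57BL/6J mice. Again no mouse of either strain fell in the range of the other. The log2 fold change of this probe was -1.97 (SE 0.29, adjusted p = 0.00657), with 1 of 6 and 5 of 6 arrays well above background. Its size therefore rests on signals near background, and with Feature Extraction's processed signals it was -4.33 (adjusted p = 0.0931). The other Mgat5 probe that was detected, well above background on 11 of the 12 arrays, gave -0.23 (adjusted p = 0.996).

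Wdfy1, an endosomal protein with WD repeats and a FYVE domain, was higher in Il10-/- mice, with ratios of 0.07 to 0.62 (median 0.25) against -1.46 to -0.55 (median -1.13). The log2 fold change was 1.39 (SE 0.18, adjusted p = 0.00253), or 2.63-fold, and with the processed signals 2.15 and not called (adjusted p = 0.156). A neighbouring Wdfy1 probe gave 0.78 (adjusted p = 0.453) with all 12 arrays and 1.03 (adjusted p = 0.00788) without C57BL/6J replicate 1. The third Wdfy1 probe went the other way, at -0.50 (adjusted p = 0.996). In intact colon at 6 weeks these 2 further probes were called in the same opposite directions, at 1.33 and -0.84.

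Gin1, which encodes a protein related to the integrases of retrotransposons, was at -0.34 to 0.02 (median -0.09) in Il10-/- mice and at 0.12 to 1.22 (median 0.74) in C57BL/6J mice. Its probe was not well above background on any Il10-/- array and was so on 5 of 6 C57BL/6J arrays. It was lower in Il10-/- mice (adjusted p = 0.0317), and since the signal of that group has only a bound no fold change is read from it. The call held in 5 of the 12 fits that left out 1 array. The other Gin1 probe showed a log2 fold change of 0.01 (adjusted p = 1.00), with 4 of 6 and 3 of 6 arrays detected. Whether the sequence under any of these probes differs between the strains was not tested.

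Il10 is itself on chromosome 1, and the called genes of this chromosome were placed by their distance from its probe. Rab7b lay 0.68 Mb and Mgat5 3.65 Mb from it, Gin1 33.3 Mb, Stk25 37.4 Mb and Wdfy1 51.0 Mb. Thus 2 of the 17 called genes lay within 20 Mb, where 262 of 27094 genes with a position (0.967%) lie, and the count was the same within 5 Mb (0.509% of genes). Within 50 Mb there were 4 (3.34% of genes), and on chromosome 1 as a whole 5 (5.93% of genes). The median log2 fold change over the genes within 20 Mb was 0.00, against -0.02 over all genes, with 130 above 0 and 132 below. Pm20d1, an amidase that makes N-acyl amino acids, lay in the same window and was called only without C57BL/6J replicate 1, at 0.84 (adjusted p = 0.049).

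**Figure D3:**
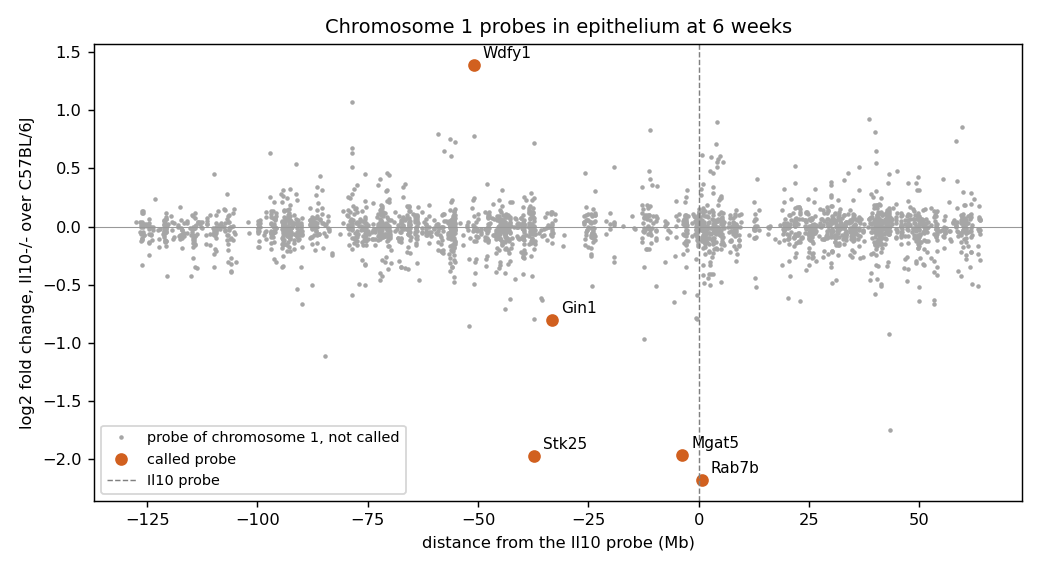
Log2 fold change, Il10-/- over C57BL/6J at 6 weeks (vertical axis), of each probe of chromosome 1 against its distance in Mb from the Il10 probe (horizontal axis). The called probes, Rab7b and Mgat5 near 0 Mb and Gin1, Stk25 and Wdfy1 33.3 to 51.0 Mb to the left, are coloured, and most other probes lie near 0, although some uncalled probes lie farther from 0 than Gin1 and Wdfy1.

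Among the called genes Pla2g5, Tifa and Socs3 had the largest rises. Pla2g5, a secreted phospholipase A2 that releases fatty acids from membrane lipids, had a ratio of -0.16 to 2.54 (median 1.93) in Il10-/- mice and of -3.30 to 1.09 (median -1.57) in C57BL/6J mice. The groups overlapped at their edges, where Il10-/- replicate 1 was the lowest of its group and C57BL/6J replicate 5 the highest of its own. The log2 fold change was 3.15 (SE 0.54, adjusted p = 0.0318), an 8.88-fold difference, with 6 of 6 and 3 of 6 arrays well above background. Its size rests in part on signals near background, and was 2.79 to 5.06 over the alternative settings. The call held in 3 of the 12 fits that left out 1 array. It was lost with the slide as a fixed block, with Feature Extraction's processed signals and when only the 12 arrays compared were fitted. Of the 35 genes of ether lipid metabolism measured, Pla2g5 was the only one called, and the median over this list was -0.01.

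Tifa, an adaptor that links the sensing of bacterial sugars to TRAF6 and NF-kB, was at 1.59 to 3.29 (median 3.00) in Il10-/- mice. In C57BL/6J mice it was at -0.68 to 1.96 (median 0.25). Only C57BL/6J replicate 5 (1.96) and Il10-/- replicate 1 (1.59) crossed. It differed by 2.35 on the log2 scale (SE 0.33, adjusted p = 0.00358), or 5.10-fold. The call was lost with the processed signals, at 3.11 (adjusted p = 0.161), and when only the 12 arrays compared were fitted (adjusted p = 0.36).

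Socs3, the feedback inhibitor that STAT3 induces, ran from 0.98 to 2.87 (median 2.37) in Il10-/- mice and from -1.19 to 1.24 (median 0.06) in C57BL/6J mice. The overlap lay between C57BL/6J replicates 5 and 6 and Il10-/- replicate 1. Its log2 fold change was 2.05 (SE 0.33, adjusted p = 0.0249), and the call was lost in 7 of the 12 fits that left out 1 array, with adjusted p-values over 0.05. It was also lost with the processed signals and when only the 12 arrays compared were fitted (adjusted p up to 0.611). The 14 genes of interleukin 10 signalling had a median log2 fold change of 0.07, and Socs3 was the only one called. Stat3 itself was at 0.14 (adjusted p = 0.996) and Socs1, a related inhibitor, at 1.42 (adjusted p = 0.568).

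The promoter of Socs3 held 1 match to the spaced STAT palindrome TTCNNNGAA, a sequence that 8.47% of all 27025 RefSeq promoters hold in a window of the same length. The window spans 250 bases before to 50 after the start site, is given in the GRCm38.p6 build, not the mm7 build of the probes, and is shown with the match in capitals. A match is a description of the letters and not of binding.
Socs3, chr11:117969317-117969616, minus strand: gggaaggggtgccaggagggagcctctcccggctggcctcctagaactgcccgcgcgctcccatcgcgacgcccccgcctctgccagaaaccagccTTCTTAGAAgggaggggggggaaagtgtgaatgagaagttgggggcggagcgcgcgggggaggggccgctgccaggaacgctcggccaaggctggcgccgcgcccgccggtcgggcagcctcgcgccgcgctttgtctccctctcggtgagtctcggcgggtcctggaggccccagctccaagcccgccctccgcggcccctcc

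Top2a, Cenpe and Iqgap3 were called higher in Il10-/- mice, and of these only Top2a belongs to the list of 48 cell cycle genes. Top2a, the DNA topoisomerase of replicating and mitotic chromosomes, was at 0.29 to 1.11 (median 0.93) in Il10-/- mice and at -0.10 to 0.40 (median 0.00) in C57BL/6J mice. Il10-/- replicate 1 lay below C57BL/6J replicate 5, and the remaining arrays were apart. On the log2 scale the difference was 0.76 (SE 0.13, adjusted p = 0.0306), with 6 of 6 arrays well above background in Il10-/- mice and 1 of 6 in C57BL/6J mice. The reference pool was well above background for this probe on only 1 of the 12 arrays. The size of the difference therefore also rests on signals near background, and was 2.56 with the processed signals (adjusted p = 0.0931).

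Cenpe, a kinetochore motor that aligns chromosomes, was at 0.62 to 1.26 (median 1.09) in Il10-/- mice and at -0.83 to 0.72 (median -0.19) in C57BL/6J mice. C57BL/6J replicate 5, at 0.72, lay above Il10-/- replicates 1 and 4, and the remaining arrays were apart. Its log2 fold change was 1.16 (SE 0.21, adjusted p = 0.045), and the call held in 4 of the 12 fits that left out 1 array. Iqgap3, a scaffold of proliferating epithelial cells, did not overlap, with 0.72 to 1.39 (median 0.83) against -0.68 to 0.17 (median -0.21). It differed by 1.19 (SE 0.21, adjusted p = 0.0318), and without C57BL/6J replicate 1 it was not called (adjusted p = 0.0559). Its call held in 4 of those 12 fits, and that of Top2a in 5. Those of Cenpe and Iqgap3 were also lost with the slide as a fixed block.

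Over the 48 cell cycle genes measured the median log2 fold change was 0.17, with 34 above 0 and 14 below, and 12 had an unadjusted p under 0.05 and a higher value while 0 had a lower one. Over all genes, on the brightest probe of each, 44.1% were above 0, 2.58% had an unadjusted p under 0.05 and a higher value and 2.79% a lower one. Top2a was the only member called in the main fit. Next to it stood the cyclins Ccna2, at 1.37 (adjusted p = 0.0987), and Ccnb2, at 1.18 (adjusted p = 0.129), and the mitotic kinases Aurkb, at 1.27 (adjusted p = 0.135), and Bub1, at 1.05 (adjusted p = 0.217). The median log2 ratio over the list was 0.28 to 0.65 on the Il10-/- arrays and -0.18 to 0.39 on the C57BL/6J arrays, and C57BL/6J replicate 5 was the highest of its group. The proliferation marker Mki67 was at 0.89 (adjusted p = 0.402).

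Without C57BL/6J replicate 1 Top2a was still the only member of the list called. Among the genes outside the list called higher there but not with all 12 arrays were Kif20a, a kinesin of cytokinesis, at 1.03 (adjusted p = 0.049), Cdkn3, a phosphatase of cyclin-dependent kinases, at 2.10 (adjusted p = 0.046), and Kif18b, a kinesin that shortens microtubules. Kif18b was not well above background on any C57BL/6J array and on 3 of 6 Il10-/- arrays, so no fold change is given (adjusted p = 0.385 with all 12 arrays and 0.00788 without that replicate). Without C57BL/6J replicate 5 the called members of the list were Aurkb, Bub1, Ccna2, Ccnb2 and Top2a. Without Il10-/- replicate 4 they were Bub1, Ccna2 and Top2a. When only probes well above background on 6 of 12 arrays were tested, they were Aurkb, Ccna2, Ccnb2 and Top2a. With array weights, with the processed signals or with only the 12 arrays compared in the fit, no member was called. Kif22, a chromosome-binding kinesin, stood just outside the threshold with all 12 arrays, at 1.14 (adjusted p = 0.053).

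Because Top2a, Cenpe and Iqgap3 were all higher, their promoters are shown from RefSeq, with CCAAT on either strand (CCAAT or ATTGG) and the cell cycle homology element TTTGAA on either strand (TTTGAA or TTCAAA) in capitals. CCAAT occurred in 27 of the 39 cell cycle promoters found (69.2%) and in 37.9% of all 27025 promoters. TTTGAA occurred in 13 of 39 (33.3%) and in 18.1% of all. Of the promoters found for called genes that were higher, 3 of 8 (37.5%) held CCAAT and 2 of 8 held TTTGAA. Top2a held 6 matches to CCAAT and 2 to TTTGAA, Cenpe 1 to CCAAT and Iqgap3 1 to TTTGAA, and no match overlapped another.
Top2a, chr11:99024140-99024439, minus strand: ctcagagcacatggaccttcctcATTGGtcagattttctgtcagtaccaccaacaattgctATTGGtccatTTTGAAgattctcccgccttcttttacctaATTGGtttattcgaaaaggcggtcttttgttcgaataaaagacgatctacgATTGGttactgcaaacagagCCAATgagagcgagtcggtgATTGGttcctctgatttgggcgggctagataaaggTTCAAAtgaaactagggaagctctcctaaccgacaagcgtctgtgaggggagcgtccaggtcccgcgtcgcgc
Cenpe, chr3:135212313-135212612, plus strand: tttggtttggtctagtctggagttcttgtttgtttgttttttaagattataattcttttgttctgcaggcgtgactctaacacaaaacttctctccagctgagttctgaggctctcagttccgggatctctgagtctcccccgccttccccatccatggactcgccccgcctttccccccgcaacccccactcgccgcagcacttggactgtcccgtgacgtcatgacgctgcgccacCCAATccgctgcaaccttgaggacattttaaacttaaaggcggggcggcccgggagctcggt
Iqgap3, chr3:88081801-88082100, plus strand: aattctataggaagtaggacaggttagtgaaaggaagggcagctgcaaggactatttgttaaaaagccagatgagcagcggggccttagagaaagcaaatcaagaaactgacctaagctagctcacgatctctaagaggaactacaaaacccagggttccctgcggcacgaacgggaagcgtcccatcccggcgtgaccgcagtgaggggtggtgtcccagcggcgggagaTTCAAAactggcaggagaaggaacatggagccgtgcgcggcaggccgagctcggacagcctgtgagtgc

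Cyp4f14, a cytochrome P450 that hydroxylates fatty acids and eicosanoids at the omega end, was at -1.14 to -0.64 (median -0.97) in Il10-/- mice and at -0.49 to 0.47 (median 0.27) in C57BL/6J mice. It was lower by 2.07-fold, with the ranges apart (log2 fold change -1.05, SE 0.18, adjusted p = 0.0318). Its call held in 3 of the 12 fits that left out 1 array, and was lost with the slide as a fixed block.

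Of the 29 genes of fatty acid oxidation and PPAR signalling 27 were below 0 and 2 above, where 55.9% of all genes were below 0. The median was -0.39, and -0.40 without C57BL/6J replicate 1. In the main fit of all 12 arrays none was called, and 9 had an unadjusted p under 0.05, all lower. Without C57BL/6J replicate 5 Fabp2 and Plin2 were called, and Plin2 was also called without Il10-/- replicate 1. Fabp2 was also called when only probes well above background on 6 of 12 arrays were tested. The closest were the lipid droplet coat protein Plin2, at -0.58 (adjusted p = 0.0672), and the intestinal fatty acid binding protein Fabp2, at -1.08 (adjusted p = 0.118). The peroxisomal enzyme Ehhadh was at -1.03 (adjusted p = 0.251) and the mitochondrial thiolase Acaa2 at -0.69 (adjusted p = 0.342). The list median on single arrays was -1.40 to -0.89 in Il10-/- mice and -1.08 to -0.54 in C57BL/6J mice, which overlapped.

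The lists of transport and xenobiotic genes also had medians below 0. Over 42 genes of ion, water and nutrient transport the median was -0.22, with 35 below 0, and 9 of them were lower and 2 higher at an unadjusted p under 0.05. Slc9a2, a sodium-hydrogen exchanger, was at -0.66 (adjusted p = 0.217), while Aqp4, a water channel, was at 1.64 (adjusted p = 0.194). Over 22 genes of xenobiotic metabolism the median was -0.25, with 16 below 0 and 6 lower at an unadjusted p under 0.05. Among them Cyp4b1 was at -2.05 (adjusted p = 0.118) and the retinal dehydrogenase Aldh1a1 at -0.87 (adjusted p = 0.148), the latter with no overlap between the strains. In the main fit of all 12 arrays no member of either list was called. Without C57BL/6J replicate 5 Cyp4b1, Slc9a2 and Trpv6 were called lower and Aqp4 higher. Slc9a2 and Aqp4 were also called without Il10-/- replicate 1, and Cyp4b1 without Il10-/- replicate 6. Cyp4b1 was called as well with array weights, and when only probes well above background on 6 of 12 arrays were tested. Absorptive colonocyte markers were lower as well, with a median log2 fold change of -0.32 over 9 (-0.18 without C57BL/6J replicate 1), and the part of colonocyte content in these values was not tested.

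The other called genes described here fell in no list. Ttc3, an E3 ubiquitin ligase, was at -1.41 to -0.91 (median -1.25) in Il10-/- mice and at -0.68 to -0.19 (median -0.28) in C57BL/6J mice. The ranges were apart, and the log2 fold change was -0.90 (SE 0.12, adjusted p = 0.00259). With the processed signals it was -0.96 and not called (adjusted p = 1.00). Pbdc1, on the X chromosome, was higher without overlap by 0.72 (adjusted p = 0.0277), D17H6S56E-5 was higher by 1.07 (adjusted p = 0.0485), and the unnamed probe NAP045521-1 on chromosome 14 was lower, at -0.73 (adjusted p = 0.045). Without C57BL/6J replicate 1 the last pair lost the call, D17H6S56E-5 with an adjusted p of 0.0843 and the probe with a log2 fold change of -0.58, under the fold threshold. The call held in 2 of the 12 fits that left out 1 array for D17H6S56E-5, in 3 for NAP045521-1 and in 7 for Pbdc1. That of D17H6S56E-5 was also lost in 8 of the 12 other settings, among them the slide as a fixed block. With the processed signals that of Pbdc1 was lost as well (adjusted p = 0.888). Card14, a scaffold of NF-kB signalling, and Rpl14, a ribosomal protein, were called higher without that replicate but not with all 12 arrays, at 1.15 and 0.72, and Rai14, an actin-binding protein, lower at -0.75.

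Immune and defence lists other than interleukin 10 signalling gave no call with all 12 arrays. Of 32 interferon response and antigen processing genes 22 were above 0 with a median of 0.18 (0.03 to 0.60 over the alternative settings), 9 were higher and 2 lower at an unadjusted p under 0.05. Gbp2, a guanylate binding protein, was at 1.87 (adjusted p = 0.304), and Iigp1, an interferon-induced GTPase, at 1.83 (adjusted p = 0.304), which became 2.20 (adjusted p = 0.049) without C57BL/6J replicate 1. Of 34 chemokine ligands 24 were above 0 with a median of 0.16, and 8 were higher at an unadjusted p under 0.05. Cxcl9, which draws T cells, was at 1.66 (adjusted p = 0.511), with 6 of 6 and 1 of 6 arrays well above background.

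The antimicrobial lectins showed how far mice of 1 strain differed. Reg3g was at -4.03 to -0.48 (median -1.56) in Il10-/- mice and at -8.68 to -1.76 (median -6.61) in C57BL/6J mice. Reg3b was at -3.72 to 0.33 (median -1.24) against -10.4 to -0.75 (median -8.02). In both genes the highest C57BL/6J mouse was replicate 5 and the lowest Il10-/- mouse was replicate 1. The log2 fold changes were 3.90 for Reg3g (adjusted p = 0.223) and 4.79 for Reg3b (adjusted p = 0.336), and both were called without C57BL/6J replicate 5. C57BL/6J replicate 5 was the array of its group nearest to the Il10-/- mice for 7 of the 9 higher and 5 of the 8 lower genes. Il10-/- replicate 1 was nearest to the C57BL/6J mice for 7 of the 9 higher and 3 of the 8 lower genes.

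Further lists had medians nearer to that of all genes, -0.02, than cell cycle and interferon response. The 32 genes linked to inflammatory bowel disease, a list that the study took from work on patients, had a median of 0.02, with 17 above 0 and 15 below. The medians were 0.13 over 30 antimicrobial and defence genes, 0.12 over 10 MHC class II genes, 0.03 over 29 cytokines, -0.06 over 27 cytokine receptors, -0.03 over 19 chemokine receptors and 0.03 over 27 Toll-like and NOD receptors and adaptors. Nod1, a sensor of bacterial peptidoglycan, was higher in every Il10-/- mouse than in any C57BL/6J mouse, at 0.66, and was not called (adjusted p = 0.148). Over 27 cell junction genes the median was -0.11, over 24 genes of mucus and glycosylation -0.03, and over 18 genes of endoplasmic reticulum stress 0.05. The mucus gene Clca1 was at -1.70 (adjusted p = 0.453) and the fucosyltransferase Fut2 at 0.93 (adjusted p = 0.56).

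**Figure D4:**
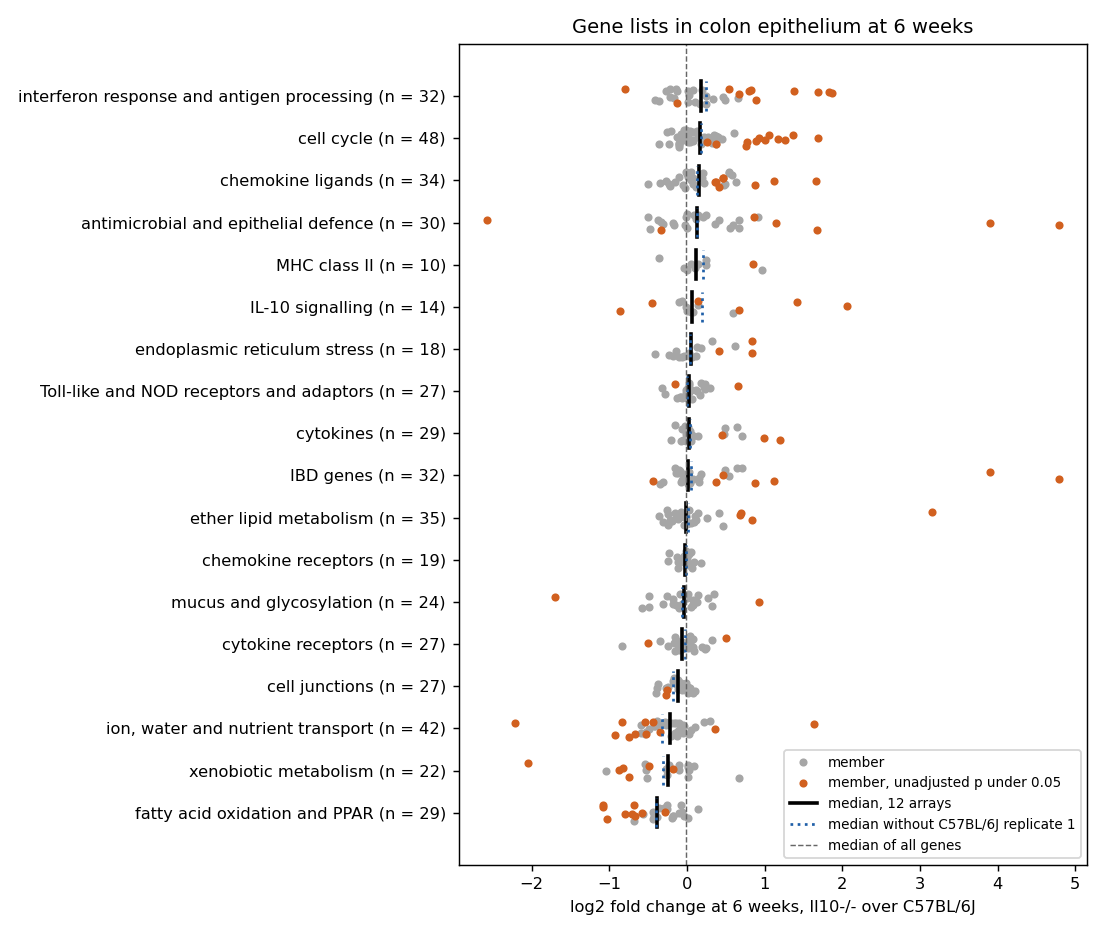
Log2 fold change at 6 weeks, Il10-/- over C57BL/6J (horizontal axis), of each member of 18 gene lists, with members at an unadjusted p under 0.05 coloured, a black bar for the list median over 12 arrays and a dotted bar for the median without C57BL/6J replicate 1. The medians of fatty acid oxidation (-0.39), xenobiotic metabolism (-0.25) and transport (-0.22) lie farthest below 0, and those of interferon response (0.18) and cell cycle (0.17) farthest above it.

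Mice of 12 weeks, which share no array with those of 6 weeks, showed the called genes in the same direction. Both ages were tested in 1 fit that shares its estimate of the spread of each probe. A call at 12 weeks is therefore not independent of a call at 6 weeks. All 17 had the same sign at 12 weeks and 15 were called, where 781 genes (2.82%) were called in all. The log2 fold change at 12 weeks was 0.56 to 1.93 times that at 6 weeks, with a median of 1.07. Only Pbdc1, at 0.42 (adjusted p = 0.105), and NAP045521-1, at -0.41 (adjusted p = 0.188), were not called at 12 weeks. For none of the 17 did the test of the difference between the ages pass the threshold, although 76 genes (0.275%) did so, 57 with a higher and 19 with a lower strain difference at 12 weeks (50 in all without Il10-/- replicate 1 and 46 without Il10-/- replicate 5).

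Some of the uncalled genes differed by age. The log2 fold change of Cyp4b1 went from -2.05 at 6 weeks to -5.33 at 12 weeks, a difference of -3.28 (adjusted p = 0.0234). It did not pass without Il10-/- replicate 1 (adjusted p = 0.0535) or with the slide as a fixed block (adjusted p = 0.0741). Fabp2 went from -1.08 to -3.05, a difference of -1.96 (adjusted p = 0.00777), and Aldh1a1 from -0.87 to -2.36, a difference of -1.49 (adjusted p = 0.0191). With Feature Extraction's processed signals the differences were larger and did not pass, at -5.18 for Cyp4b1 (adjusted p = 0.117), -2.43 for Fabp2 (adjusted p = 0.112) and -1.89 for Aldh1a1 (adjusted p = 0.271). Ciita, the master regulator of MHC class II genes, passed the same test (adjusted p = 0.0058, and 0.112 with the processed signals), but its probe was well above background on only 1 of 6 arrays of each strain at 6 weeks, so that no size is read from it. For Reg3g, with 3.90 and 7.35, and for Reg3b, with 4.79 and 8.72, the test of the difference did not pass (adjusted p = 0.918 and 1.00). List medians at 12 weeks were 1.08 for interferon response, 0.88 for MHC class II, -0.62 for fatty acid oxidation, -0.56 for transport and -0.69 for xenobiotic metabolism, and 0.13 for cell cycle. In intact colon at 6 weeks they were -0.04 for interferon response, 0.30 for MHC class II and 0.11 for cell cycle. The other medians there were -0.06 for fatty acid oxidation, -0.004 for transport and -0.02 for xenobiotic metabolism. Of the 48 cell cycle genes 34 were above 0 there, as in epithelium at 6 weeks.

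In intact colon of 6 week old mice fewer of these genes were called. All 17 had the same sign there, and 6 were called, where 62 genes (0.224%) were called in all. The 5 genes of chromosome 1 were called in all 3 comparisons, with a median size of log2 fold change of 1.97 in epithelium at 6 weeks, 2.06 in epithelium at 12 weeks and 1.77 in intact colon at 6 weeks. The other 12 had median sizes of 1.06, 1.31 and 0.49, and of these 10 were called in epithelium at 12 weeks and 1, NAP045521-1, in intact colon. In intact colon Tifa was at 0.79 (adjusted p = 1.00), Pla2g5 at 0.81 (adjusted p = 1.00), Socs3 at 0.54 (adjusted p = 1.00) and Top2a at 0.63 (adjusted p = 0.953). The test of the difference between the tissues passed for 1 of the 17, Gin1 (adjusted p = 0.0474), and over all genes for 7 (0.0253%). The size of the difference of Gin1 cannot be read, since its probe was not well above background on any Il10-/- array of epithelium. With the processed signals the difference was 0.02 (adjusted p = 1.00). Its call held in 3 of the 12 fits that left out 1 array, with adjusted p-values of 0.0611 to 0.126 in the other 9, which left out Il10-/- replicates 1, 3, 4, 5 or 6 or C57BL/6J replicates 1, 3, 4 or 6. The labels do not tie the arrays of the tissues to single mice. Both tissues were cut from the colon of the same set of mice, so arrays of both can share a mouse. The test between tissues left out any such pairing, and signs shared between tissues need not come from separate mice. The tissues also differed in RNA input, rounds of amplification and scanner software.

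**Figure D5:**
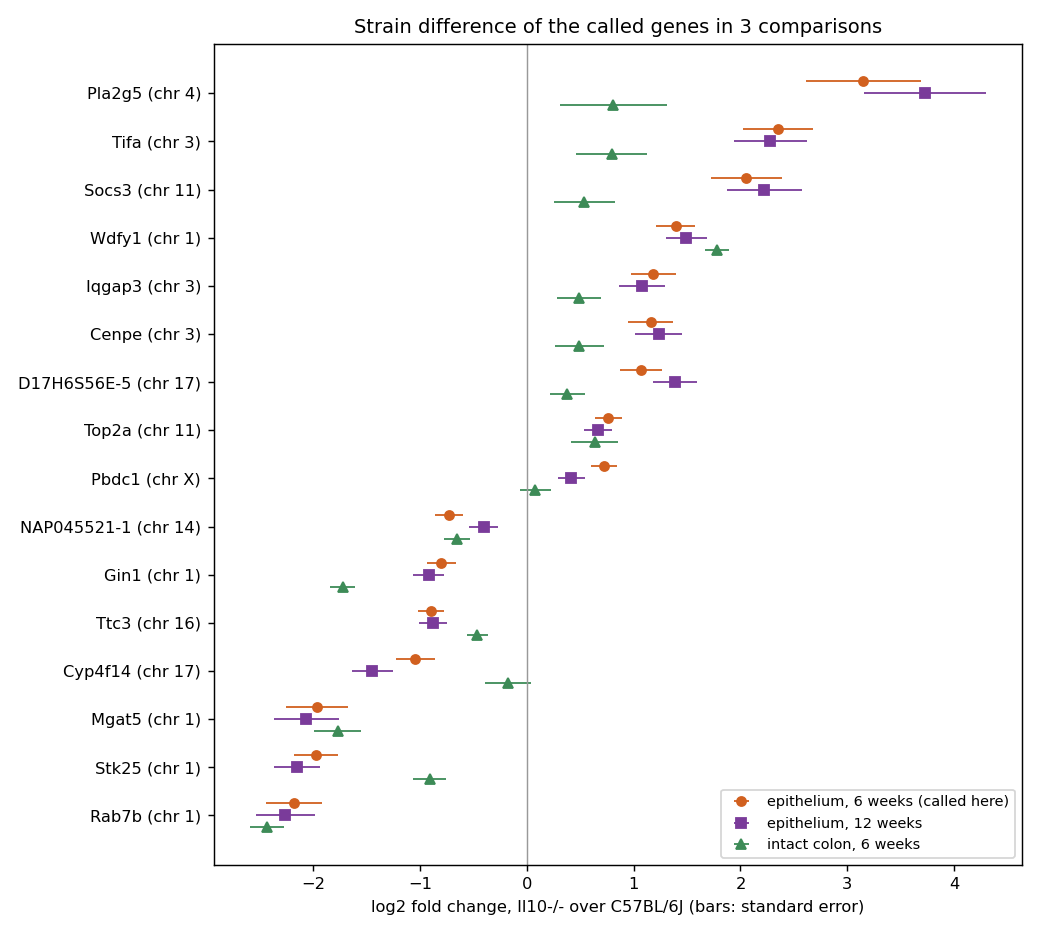
Log2 fold change, Il10-/- over C57BL/6J (horizontal axis), of 16 of the 17 called genes in epithelium at 6 weeks, epithelium at 12 weeks and intact colon at 6 weeks, with bars for the standard error. All 16 lie on the same side of 0 in the 3 comparisons, and outside chromosome 1 the values of intact colon are mostly nearer 0.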

How the data were processed

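RNA of laser microdissected colon epithelium was measured on 2-colour Agilent 4x44K mouse arrays, with 6 arrays for each strain at 6 weeks. The authors deposited log2 ratios of reference (Cy5) over sample (Cy3), loess-normalised without background correction in limma under R 2.14.1 per the submitters' processing notes; their sign was turned here. The deposited scanner files (Feature Extraction 10.10.1.1 for epithelium, 9.5.1.1 for intact colon) gave Cy3 and Cy5 intensities, detection calls and, for intact colon, mm7 positions. Control spots were left out and 43379 spots averaged to 41174 probes of 27670 genes. Median Cy3 intensity was 937 to 1907, against 870 to 2053.5 for negative controls, and the number of arrays limits the precision.

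The 4 groups of 23 epithelial arrays by strain and age were fitted in limma 3.58.1 (R 4.3.3), leaving out 1 technical repeat. The difference between tissues used 47 arrays in 8 groups. Called meant a fold change over 1.5 and a Benjamini-Hochberg adjusted p under 0.05 over all probes. Arrays of 1 tissue were those of different mice, and p-values within a tissue measure the spread between mice. Arrays of both tissues can share a mouse, which the test between tissues did not take into account. A list was described on the probe of each gene with the highest mean Cy3 intensity, by counts and its median. Named are Il10, every called gene but 1, which is not reported here, those called without C57BL/6J replicate 1 but not with all arrays, the 6 uncalled genes with the smallest adjusted p where they bear on a list, the 2 list members with the largest moderated t, and some further members chosen after their values were seen. Of the probes, 22951 were named by accession, 6659 by current symbol, 3109 by older symbol and 8455 as in the files. Promoters were found in RefSeq for 13 of 17 called and 39 of 48 cell cycle genes. The members and lists were chosen with earlier results of these data known. The procedure was tested on simulated data. Alternatives varied background correction, normalisation, probe filter, samples in the fit, slide as a block, array weights, and each array left out.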

Additional observations from a re-analysis of the deposited data

Results flagged for a closer look

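Among 194 groups of 6 arrays looked at, 17 had an array that stood apart from its group by Dixon's criterion (a gap over 0.625 of the range), and chance gives about 1 in 20. C57BL/6J replicate 1 stood apart in 6 of them. Its median correlation with other epithelial arrays was 0.484, its log2 ratio was 2.13 for Rpl14, -0.491 for Pm20d1 and 0.686 for NAP045521-1, and its mean marker ratio was 0.0386 for endothelium and -0.30 for red blood cells. C57BL/6J replicate 5 stood apart for Ttc3 (-0.680) and D17H6S56E-5 (1.63), each time on the side of the Il10-/- mice. C57BL/6J replicate 4 stood apart for Cdh17, an intestinal cadherin (0.553), and for the means of the epithelial (0.673) and mast cell markers (0.243), of which 0 of 5 were well above background on at least 6 arrays.

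Il10-/- replicate 1 was the lowest of its group for Tifa (1.59), Top2a (0.294) and Rpl14 (0.390). Il10-/- replicate 2 stood apart for Ccr10 (-0.105), which was not well above background on any of the 12 arrays, replicate 3 for the median of the cytokines (0.225) and replicate 4 for the mean of the red blood cell markers (-1.03).

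The test of a change of the strain difference with age passed for 4 named genes. The difference changed from 6 to 12 weeks by 1.26 for Ciita (adjusted p = 0.0058), by -1.96 for Fabp2 (adjusted p = 0.00777), by -3.28 for Cyp4b1 (adjusted p = 0.0234) and by -1.49 for Aldh1a1 (adjusted p = 0.0191). None of the 4 passed with Feature Extraction's processed signals, where they were larger, at 2.58, -2.43, -5.18 and -1.89 in that order (adjusted p = 0.112, 0.112, 0.117 and 0.271), and Cyp4b1 did not pass with the slide as a fixed block (adjusted p = 0.0741). The probe of Ciita was well above background on 1 of 6 arrays of each strain at 6 weeks, so that its value cannot be read as a size. Between epithelium and intact colon at 6 weeks it differed by 0.923 for Gin1 (adjusted p = 0.0474) and by -0.857 for Il10 (adjusted p = 0.0001). The Il10 probe was not well above background on 11 of the 12 epithelial arrays, nor the Gin1 probe on any of the 6 Il10-/- arrays, so that neither value can be read as a size. That of Gin1 was 0.0192 with the processed signals (adjusted p = 1.00), and it did not pass in 9 of the 12 fits that left out 1 array.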

How the results depend on the processing

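On an array 12.2 to 36.1% of probes were well above background, and differences of dimmer probes are limited by the background. At 6 weeks 17 genes were called, 76 for the difference between ages and 7 for that between tissues. With Feature Extraction's processed signals these were 3 (Gin1, Rab7b and Stk25), 44 and 3. Only probes well above background on 6 of 12 arrays gave 33 genes at 6 weeks, 24 higher and 9 lower with 16 of the 17 among them, and 1 for the tissues. Fitting only the 12 arrays compared gave 5 (Cyp2d10, Gfra3, Stk25, Ttc3 and Wdfy1). Array weights gave 184 for the ages and 15 for the tissues, and normexp background correction gave 2 for the tissues. Leaving out 1 array gave 6 to 61 genes at 6 weeks, 46 to 111 for the ages and 6 to 8 for the tissues. Other settings kept each count within 1.5 times. Among single genes the only values that changed sign were Gin1, at 0.0126 when the brightest probe stood for the gene, and Ccr10, at 0.00723 with the processed signals. The cause was not tested, except that fewer probes, fewer arrays or another probe entered by construction. Over 407 values of the 17 called genes, 264 kept direction and call, 142 kept direction and lost the call and 1 changed sign. The medians of the cell cycle, interferon, chemokine ligand, antimicrobial, fatty acid oxidation, transport and xenobiotic lists kept their sign under all 24 settings (0.12 to 0.48, 0.03 to 0.60, 0.09 to 0.48, 0.09 to 0.50, -0.43 to -0.28, -0.35 to -0.16 and -0.52 to -0.16 in that order), and that of interleukin 10 signalling changed sign under 1.

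Replicate numbers at 6 weeks are also slide numbers. The deviations of arrays with the same number correlated at -0.35 to 0.16, and 0 of the 12 arrays correlated best with their own number, so the arrays were not taken as paired. With the replicate number as a fixed block 12 genes were called at 6 weeks (without Cyp4f14, Iqgap3, Pla2g5, Cenpe and D17H6S56E-5), 69 for the ages and 8 for the tissues, and as a random block 25, 103 and 10. Within slides Stk25 was lower on all 6, by -2.60 to -1.34.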
